A study of Saccharomyces cerevisiae with 4 samples.

Results

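The 10 genes described here encode proteins that build the prospore membrane of Saccharomyces cerevisiae, and they were chosen by systematic name from the 6690 reading frames listed for each library. They are MPC54 (YOR177C), SPO21 (YOL091W), SPO74 (YGL170C), ADY4 (YLR227C), SSP1 (YHR184W), ADY3 (YDL239C), DON1 (YDR273W), SPO20 (YMR017W), SMA2 (YML066C) and PFS1 (YHR185C), and all 10 were found. RNA-seq was done on strain LRY3099, which lacks the deacetylase genes SIR2 and HST1 (sir2D::TRP1, hst1D::KanMX), and on the wild-type strain LRY3093. Each genotype had 2 libraries, called technical replicates by the series, from 1 strain, so the p-values below measure the spread between these libraries and not between cultures or strains. Both strains were haploid cells of the alpha mating type with mutant alleles of CAN1, HIS3, LEU2, LYS2, TRP1 and URA3 by their labels, and HMR was replaced in both (hmrD::ura3 in LRY3099, hmr::ura3 in LRY3093). The wild-type label also carries the entry GAL. Cells were harvested while growing exponentially in YPD, a rich glucose medium in which haploid cells do not sporulate.

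The prospore membrane is the double membrane that grows around each nucleus in meiosis II, and its inner layer becomes the plasma membrane of the spore. It starts at the meiotic outer plaque, a coat that replaces the microtubule-anchoring outer plaque on the cytoplasmic face of the spindle pole body, where secretory vesicles dock and fuse. A ring of leading edge proteins then shapes the open mouth of the growing membrane. Many genes of this stage carry a middle sporulation element, a short DNA sequence bound by the repressor Sum1 in growing cells and by the activator Ndt80 in meiosis, and Hst1 is recruited to Sum1 through Rfm1.

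The deleted genes were checked first. Both deletion libraries list SIR2 at 0 FPKM, against 24.3 and 23.8 FPKM in wild type, and HST1 at 0, against 58.2 and 57.8 FPKM. FPKM scales fragments to gene length, so levels of different genes can be set side by side. How the libraries were scaled to each other is not given. TRP1, the marker placed at SIR2, stood at 134 and 149 FPKM in the deletion libraries and at 29.6 and 31.0 FPKM in wild-type libraries, and its part in any result below cannot be told apart from that of the missing deacetylases. LYS2, which the labels of both strains give as deleted, was listed at 24.9 and 26.8 FPKM in the deletion libraries and at 24.4 and 23.2 FPKM in wild-type libraries, so that label entry does not match the values. FPKM values summed to 3586270 and 3662430 in the deletion libraries and to 3468680 and 3419040 in wild-type libraries. Read totals are not in the files. Between 35.1% and 40.6% of the low FPKM values compared fell on steps of whole reads, from which relative depths of 83.3% and 76.7% for deletion replicates 1 and 2 and 89.1% for wild-type replicate 2 were estimated, taking wild-type replicate 1 as 100%.

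The 300 bases before each start codon of the R64 annotation were searched on both strands for the middle sporulation element, spelled GNCACAAAA, GNCACAAAT, GNCGCAAAA or GNCGCAAAT, where N is any base. This 9-letter form was found before 6 of the 10 genes, against 5.3% of 6001 windows of the same length before protein-coding genes. Its core, the last 7 letters of each spelling, was found before 9 of the 10 genes and in 19.9% of all windows. Of 381 windows of genes called higher in the deletion strain, 16.5% had this 9-letter form and 30.7% the core. These windows include those of the genes among the 10 that were called. Among 162 windows of genes called lower, 1.9% had the 9-letter form and 16.7% the core. In 16 other genes of the prospore membrane 37.5% of windows had the 9-letter form and 56.2% the core. In 18 spindle pole body genes of growing cells these shares were 11.1% and 38.9%. The sites below are those of the 3 outer plaque genes with the 9-letter form, of SSP1 and SMA2, which also have it, and of PFS1, the gene with the largest difference. Each line holds 30 bases of R64, 5′ to 3′ on the strand that carries the core, with the core in capitals.
SPO74: atttcttgtgaCACAAAAgagaacattgat
SPO21: ttttttaatgtCACAAAAagaaaaattaaa
ADY4 far site: gattttggggcCACAAAActggtatagcag
ADY4 middle site: ctgtccattgcCACAAAAgttctatttact
ADY4 near site: ttgatcatagtCACAAATtgtcggctcacg
SSP1: caaacaggcgaCACAAAAtcatgaagtcag
SMA2: ccctaagatgaCACAAAAaaatgttctccc
PFS1: gaattttataaaaaCGCAAATtttatcgaa

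The SPO74, SPO21, SSP1 and SMA2 cores lie 115 to 121, 110 to 116, 89 to 95 and 158 to 164 bases before the start codon. In SPO74 and SMA2 the core is on the strand opposite to the gene, and in SPO21 and SSP1 on the same strand. ADY4 has 3 cores, each in the 9-letter form, at 274 to 280, 213 to 219 and 17 to 23 bases before its start codon. The PFS1 core starts 16 bases before the start codon and lacks the G of the 9-letter form. MPC54 and ADY3 had the core but not the 9-letter form, and no letters of either kind were found in the SPO20 window. A match of letters describes the window and is not evidence of binding.

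**Figure D1:**
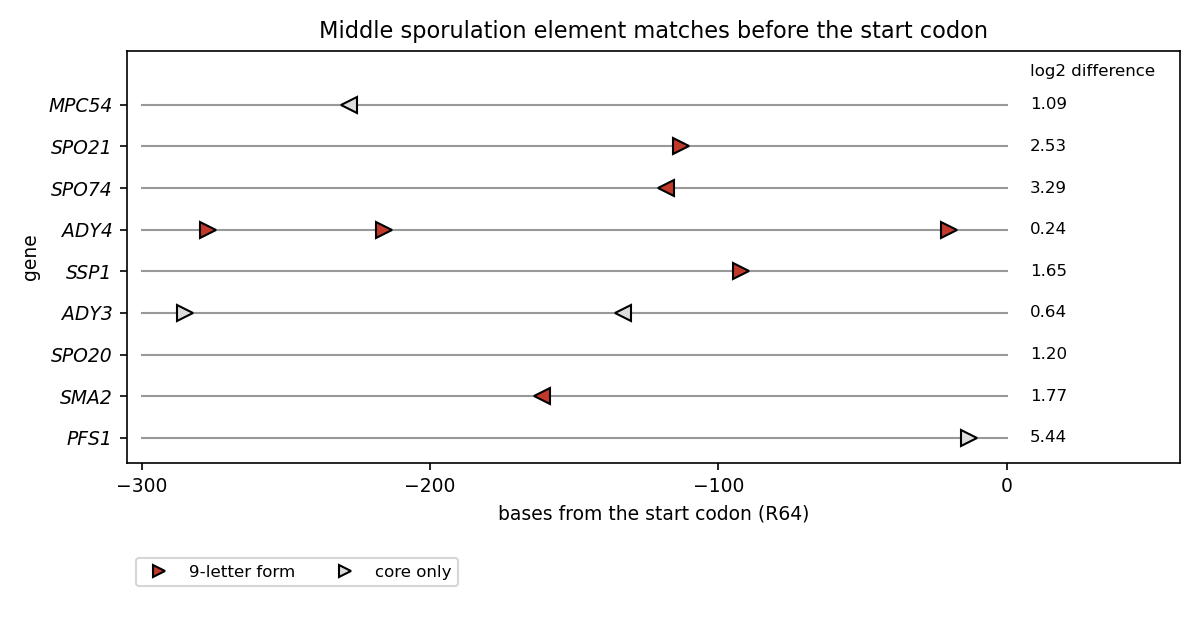
Matches to the middle sporulation element in the 300 bases before the start codon of 9 of the 10 genes (x axis, bases from the start codon in R64). Triangles point right where the core is on the strand of the gene and left where it is on the opposite strand, and red marks the 9-letter form and pale the core only. The numbers at the right are the log2(FPKM + 1) differences, deletion minus wild type: ADY4 has 3 matches in the 9-letter form and the lowest difference, 0.24.

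Nearly all of the 10 genes were higher in the deletion strain. By limma on log2(FPKM + 1), with Benjamini-Hochberg adjustment over the 6370 genes tested, 9 of the 10 rose (adjusted p under 0.05) and 0 fell. At an unadjusted p under 0.05, 10 of the 10 were higher and 0 lower, against 1025 higher and 900 lower of the 6370 genes tested. Of all genes tested 6.75% were called higher and 2.79% lower. Both deletion libraries lay above both wild-type libraries for 10 of 10 genes, against 30.5% of all genes tested. The median log2 difference of the 10 genes was 1.57, and that of all genes tested was -0.01. Summed over the 10 genes, FPKM came to 296 and 279 in the deletion libraries and to 74.7 and 75.1 in wild-type libraries. All 10 passed the filter of at least 1 FPKM in at least 2 libraries, PFS1 through its deletion libraries. Without deletion replicate 1, or without replicate 2, 6 of the 10 genes were called, since MPC54, ADY3 and SPO20 then missed the threshold with log2 differences that stayed above 0.

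Of the 4 outer plaque genes 3 rose, by unequal amounts. SPO74, whose product is a component of the meiotic outer plaque needed before the membrane forms, was listed at 41.6 and 39.2 FPKM in the deletion libraries and at 3.17 and 3.31 FPKM in wild-type libraries. These libraries did not overlap, and the gene rose 12.5-fold (ratio of mean FPKM; log2 difference 3.29, SE 0.08, limma adjusted p = 0.000101). SPO21, another component of that plaque, was listed at 25.6 and 23.0 FPKM in the deletion libraries and at 3.93 and 2.89 FPKM in wild-type libraries. It rose 7.11-fold (log2 difference 2.53, SE 0.14, limma adjusted p = 0.00139).

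MPC54, a structural plaque component, stayed at a low level: it was listed at 9.24 and 8.73 FPKM in the deletion libraries and at 3.27 and 4.13 FPKM in wild-type libraries. The groups did not overlap and it rose 2.43-fold (log2 difference 1.09, SE 0.13, limma adjusted p = 0.0139). ADY4, a further structural component, was the 1 gene of the 10 that did not pass. It was listed at 38.2 and 34.1 FPKM in the deletion libraries and at 29.6 and 31.3 FPKM in wild-type libraries. The groups were separate but close, with a fold of 1.19 and a log2 difference of 0.24 (SE 0.08, 95% interval 0.03 to 0.45, limma adjusted p = 0.134). The interval for ADY4 ends below the lower ends of the intervals of SPO74 (3.08), SPO21 (2.14) and MPC54 (0.74). In wild type ADY4 already had the highest level of the 10 genes, 30.5 ± 1.17 FPKM, against 3.24 ± 0.09 for SPO74, 3.41 ± 0.73 for SPO21 and 3.70 ± 0.61 for MPC54 (SD, n = 2).

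**Figure D2:**
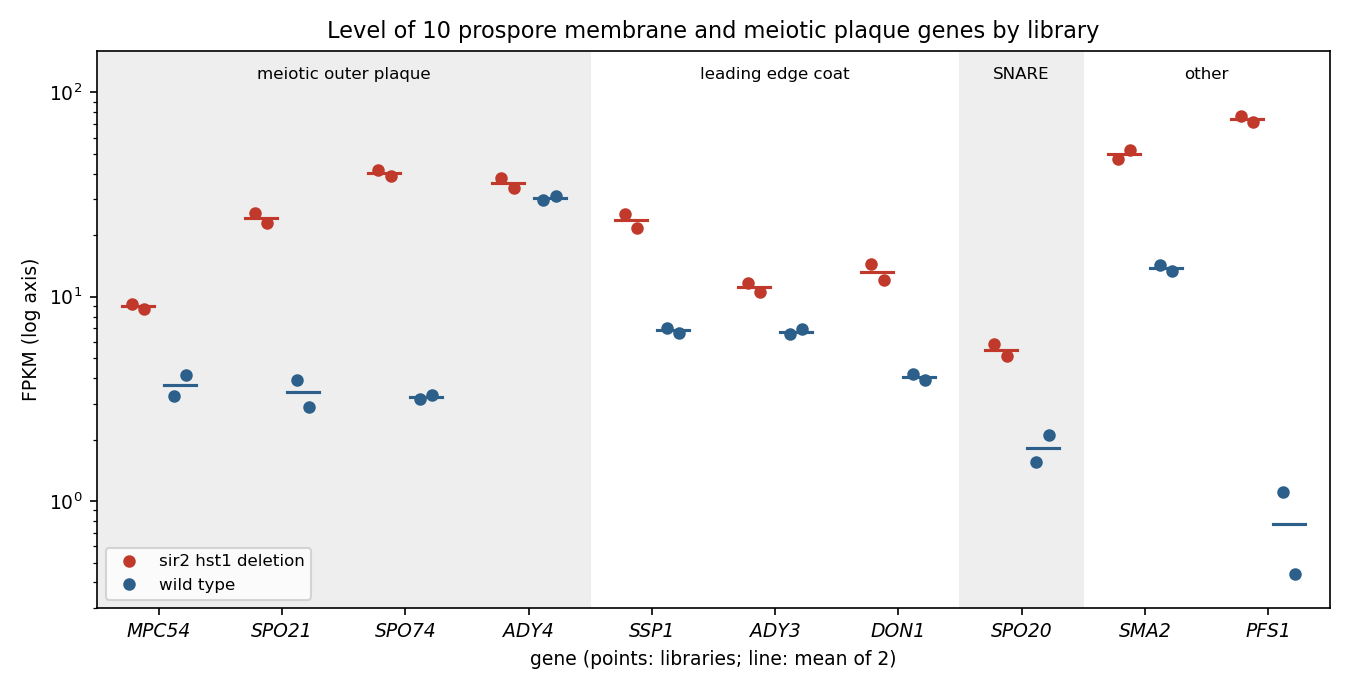
FPKM (log axis) of each gene in the 2 deletion libraries (red, left of each pair) and the 2 wild-type libraries (blue, right), with a line at the mean of 2. The red points lie above the blue points for every gene shown, by the widest gap for PFS1 and the narrowest for ADY4.

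The 3 leading edge genes all rose. SSP1 encodes the coat subunit required for assembly of the ring at the membrane's mouth. It was listed at 25.5 and 21.8 FPKM in the deletion libraries and at 7.02 and 6.66 FPKM in wild-type libraries, a 3.46-fold rise with separate groups (log2 difference 1.65, SE 0.10, limma adjusted p = 0.00177). DON1, a further ring subunit, was listed at 14.4 and 12.1 FPKM in the deletion libraries and at 4.17 and 3.92 FPKM in wild-type libraries. It rose 3.28-fold, again without overlap (log2 difference 1.49, SE 0.12, limma adjusted p = 0.0035).

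ADY3, which links the ring to spindle pole body components and mediates its assembly, moved least of the ring genes that were chosen here. Its values were 11.7 and 10.6 FPKM in the deletion libraries and 6.53 and 6.98 FPKM in wild-type libraries, a 1.65-fold rise (log2 difference 0.64, SE 0.10, limma adjusted p = 0.0246). ADY3 missed the threshold when any 1 of the 4 libraries was left out (adjusted p between 0.055 and 0.0951) and after quantile normalization (0.0574). IRC10, the remaining subunit of this ring and not one of the 10 genes, was listed at 46.0 and 42.6 FPKM in the deletion libraries and at 15.6 and 14.3 FPKM in wild-type libraries and rose 2.96-fold (limma adjusted p = 0.000985).

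SPO20 encodes the SNAP-25-like SNARE that fuses vesicles at the prospore membrane, and it had the lowest level of the 10 genes in the deletion strain. It was listed at 5.85 and 5.14 FPKM in the deletion libraries and at 1.55 and 2.11 FPKM in wild-type libraries. The groups did not overlap and the gene rose (log2 difference 1.20, SE 0.17, limma adjusted p = 0.0209), with no fold given for a wild-type mean under 2 FPKM. It missed the threshold without deletion replicate 1 or 2 (adjusted p = 0.108 and 0.0912) and after quantile normalization (0.0743).

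SMA2 and PFS1 act in the growth and shaping of the membrane. SMA2, a membrane protein needed for the bending of the prospore membrane, was listed at 47.1 and 52.4 FPKM in the deletion libraries and at 14.4 and 13.4 FPKM in wild-type libraries. It rose 3.58-fold with separate groups (log2 difference 1.77, SE 0.08, limma adjusted p = 0.000628). PFS1, required for membrane formation at selected spindle poles, was listed at 77.0 and 71.9 FPKM in the deletion libraries and at 1.11 and 0.439 FPKM in wild-type libraries. Its log2 difference of 5.44 (SE 0.20, limma adjusted p = 0.000315) ranked 4 among the rises of all 6370 genes tested. Its wild-type level is too low for a fold.

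**Figure D3:**
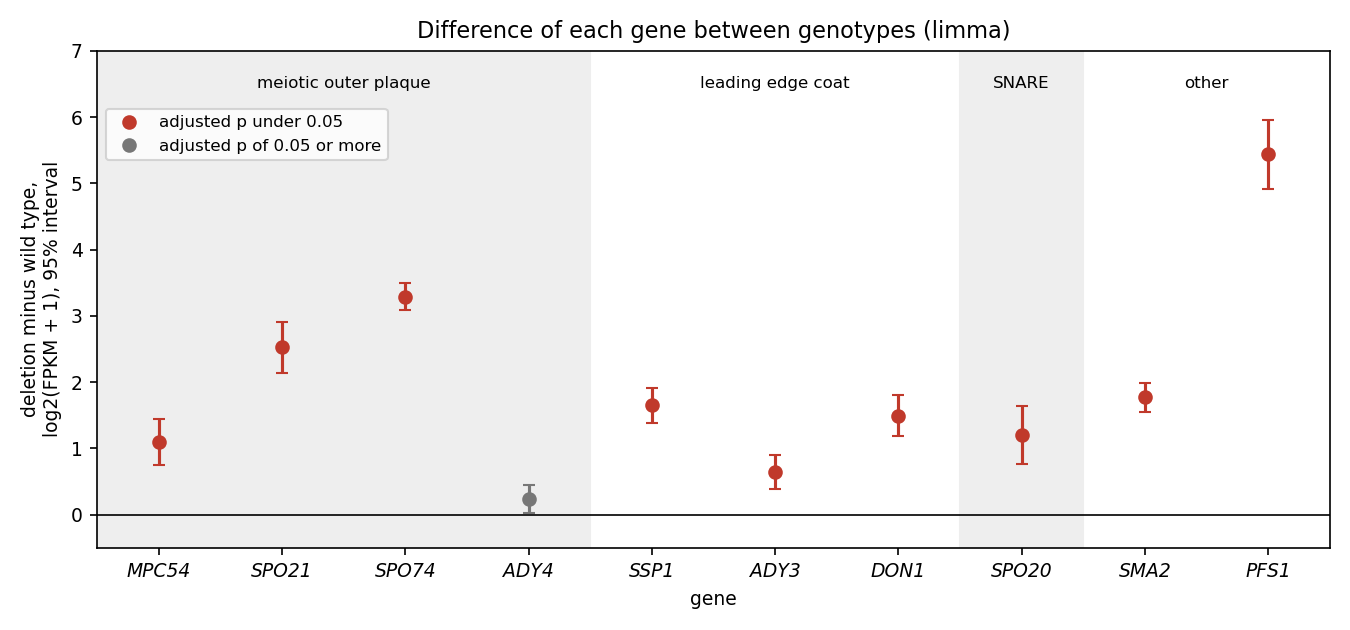
Difference of each gene, deletion minus wild type, in log2(FPKM + 1), with 95% intervals from limma (y axis) and genes grouped by role (x axis). PFS1 stands at 5.44 and SPO74 at 3.29. ADY4, in grey, has an adjusted p of 0.134.

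The order of levels changed between genotypes. In the deletion strain PFS1 was highest with 74.4 ± 3.63 FPKM, followed by SMA2 (49.8 ± 3.78), SPO74 (40.4 ± 1.70), ADY4 (36.1 ± 2.92), SPO21 (24.3 ± 1.83), SSP1 (23.7 ± 2.66), DON1 (13.3 ± 1.60), ADY3 (11.1 ± 0.77), MPC54 (8.99 ± 0.36) and SPO20 (5.49 ± 0.50; SD, n = 2 each). Of the neighbours in this order, the libraries of SPO21 and SSP1 overlapped and those of no other pair did. In wild type ADY4 led, SMA2 followed with 13.9 ± 0.67 FPKM, then SSP1 (6.84 ± 0.25), ADY3 (6.76 ± 0.32), DON1 (4.05 ± 0.17), MPC54, SPO21, SPO74, SPO20 (1.83 ± 0.40) and PFS1 (0.774 ± 0.474). There the libraries of SSP1 and ADY3 overlapped, as did those of each neighbouring pair from DON1 to SPO74, so their order is not resolved. The levels stayed modest: 8 of the 10 genes were below the median level of the genes tested in the deletion strain (40.9 FPKM), and 10 of 10 were below it in wild type (40.3 FPKM). In 9 of the 10 genes deletion replicate 1 was above replicate 2, SMA2 being the exception. The share of all genes tested with that order was not counted, so it is not given as a trait of the 10.

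Other genes that act at the prospore membrane behaved in a mixed way. In a list of 16 such genes 11 rose and 0 fell (limma; 11 were higher and 0 lower at unadjusted p under 0.05), with a median log2 difference of 1.78 beside -0.01 for all genes. Among all 6370 genes tested 6.75% were called higher and 2.79% lower, and 1025 were higher and 900 lower at that unadjusted p. SPR3, a sporulation septin gene, was listed at 53.1 and 44.6 FPKM in the deletion libraries and at 1.64 and 1.45 FPKM in wild-type libraries (log2 difference 4.29, limma adjusted p = 0.000133). SPS1, a kinase gene, averaged 59.4 ± 4.47 FPKM in the deletion strain and 2.40 ± 0.35 FPKM in wild type, both ± SD with n = 2. The septin gene SPR28 was listed at 48.8 and 46.7 FPKM in the deletion libraries and at 2.43 and 2.17 FPKM in wild-type libraries. SMA1 and SPO19 rose by 4.01 and 3.76 on the log2 scale (limma adjusted p = 0.000793 and 0.000454), with deletion means of 25.8 and 26.3 FPKM and wild-type means of 0.677 and 1.03 FPKM. Like PFS1, both passed the filter on low values through their deletion libraries. Both encode proteins that act in forming the prospore membrane. The 5 genes of the list that were not called were SPO14, SPO71, SPO73, VPS13 and ERV14. Their log2 differences lay between -0.14 for VPS13 and 0.18 for SPO73.

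The spindle pole body components that growing cells use gave other values. In a list of 18 genes, which includes the outer plaque gene SPC72 and the gamma-tubulin gene TUB4, 1 rose and 0 fell (limma; 4 were higher and 0 lower at unadjusted p under 0.05), and the median log2 difference was 0.07. SPC98, of the gamma-tubulin complex, was the gene called, with 15.0 ± 0.44 FPKM in the deletion strain and 10.8 ± 0.76 FPKM in wild type (SD, n = 2; limma adjusted p = 0.048). It was not called under 8 of the 12 alternatives. SPC110, SPC97 and TUB4 were also higher at unadjusted p under 0.05 but were not called (limma adjusted p = 0.164, 0.0966 and 0.087). Of all 6370 genes tested 6.75% were called higher and 2.79% lower, and 1025 were higher and 900 lower at that unadjusted p. Among 8 genes of exocytic fusion in growing cells 0 rose and 1 fell (limma; 1 was higher and 2 were lower at unadjusted p under 0.05): MSO1, a partner of the secretory protein Sec1, had 34.2 ± 1.25 FPKM in the deletion strain and 45.1 ± 0.44 FPKM in wild type (limma adjusted p = 0.0258), and it was not called when any 1 of the 4 libraries was left out.

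**Figure D4:**
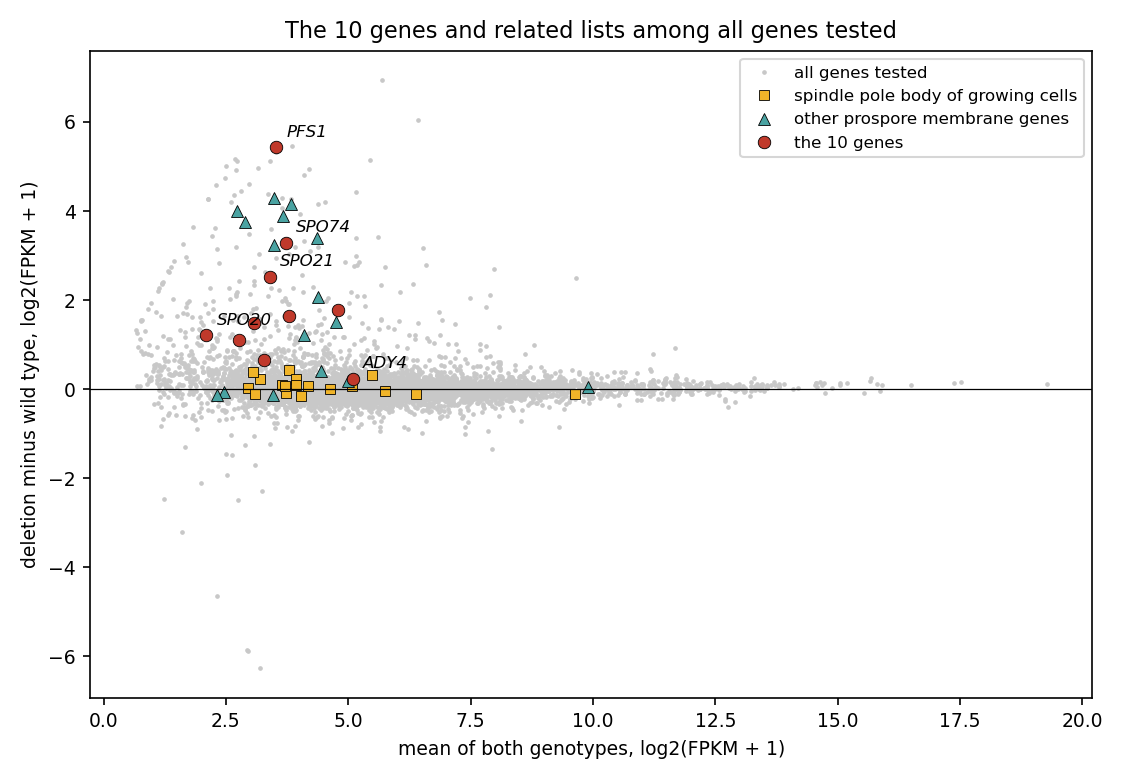
Each point is a gene tested, at its mean log2(FPKM + 1) over both genotypes (x axis) and its difference, deletion minus wild type, on the same scale (y axis). The 10 genes (red circles) have differences between 0.24 and 5.44, the other prospore membrane genes (triangles) between -0.14 and 4.29, and the spindle pole body genes of growing cells (squares) between -0.15 and 0.43.

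Several of the 10 genes have a paralog from the whole genome duplication or a relative that serves growing cells. SEC9, the SNAP-25-like SNARE of growing cells to which SPO20 is similar, was listed at 32.9 and 31.6 FPKM in the deletion libraries and at 30.5 and 30.4 FPKM in wild-type libraries (log2 difference 0.08, 95% interval -0.07 to 0.23, limma adjusted p = 0.403). The interval of SPO20 ran from 0.76 to 1.65. CNM67, the spindle pole body paralog of ADY3, was listed at 18.4 and 16.7 FPKM in the deletion libraries and at 16.6 and 16.9 FPKM in wild-type libraries (log2 difference 0.06, interval -0.14 to 0.26, limma adjusted p = 0.645), and the ADY3 interval ran from 0.39 to 0.89. CUE5, a ubiquitin-binding autophagy receptor and the paralog of DON1, was added to these pairs after its annotation was read. It was listed at 39.1 and 38.3 FPKM in the deletion libraries and at 43.1 and 45.7 FPKM in wild-type libraries (log2 difference -0.19, interval -0.35 to -0.04, limma adjusted p = 0.118). YSW1, the paralog of SPO21 and itself a sporulation gene, rose 12.6-fold, with 33.2 ± 1.55 FPKM in the deletion strain and 2.63 ± 0.10 FPKM in wild type (SD, n = 2; limma adjusted p = 0.000127). The differences between the 2 genes of a pair were not tested.

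The rise of the 10 genes was not shared by most of their neighbours on the chromosome. In R64 the 10 genes have 18 other annotated neighbours, of which 14 were tested. Of these 14, 2 rose and 0 fell, against 6.75% higher and 2.79% lower of all genes tested. Their median log2 difference was -0.04. None of the 10 genes overlaps an annotated R64 gene, and the gaps run from 20 to 1899 bases. SSP1 and PFS1 are each other's neighbours and face each other with 167 bases between their ends. Since the use of strand in counting is not given, reads running past the end of one cannot be told apart from reads of the other. ADY4 and BUR2, a cyclin gene, end 20 bases apart in the same way, so the same limit holds for the level and difference of ADY4. BUR2 was listed at 28.5 and 28.2 FPKM in the deletion libraries and at 31.2 and 27.3 FPKM in wild-type libraries. SPO20 had both neighbours that rose. PEX9, a peroxisomal import receptor gene, was listed at 5.84 and 5.54 FPKM in the deletion libraries and at 1.54 and 1.17 FPKM in wild-type libraries (log2 difference 1.51, SE 0.16, limma adjusted p = 0.00819), and SOK2, a transcription factor gene, at 48.4 and 48.8 FPKM in the deletion libraries and at 39.5 and 40.4 FPKM in wild-type libraries (log2 difference 0.28, limma adjusted p = 0.0488).

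**Figure D5:**
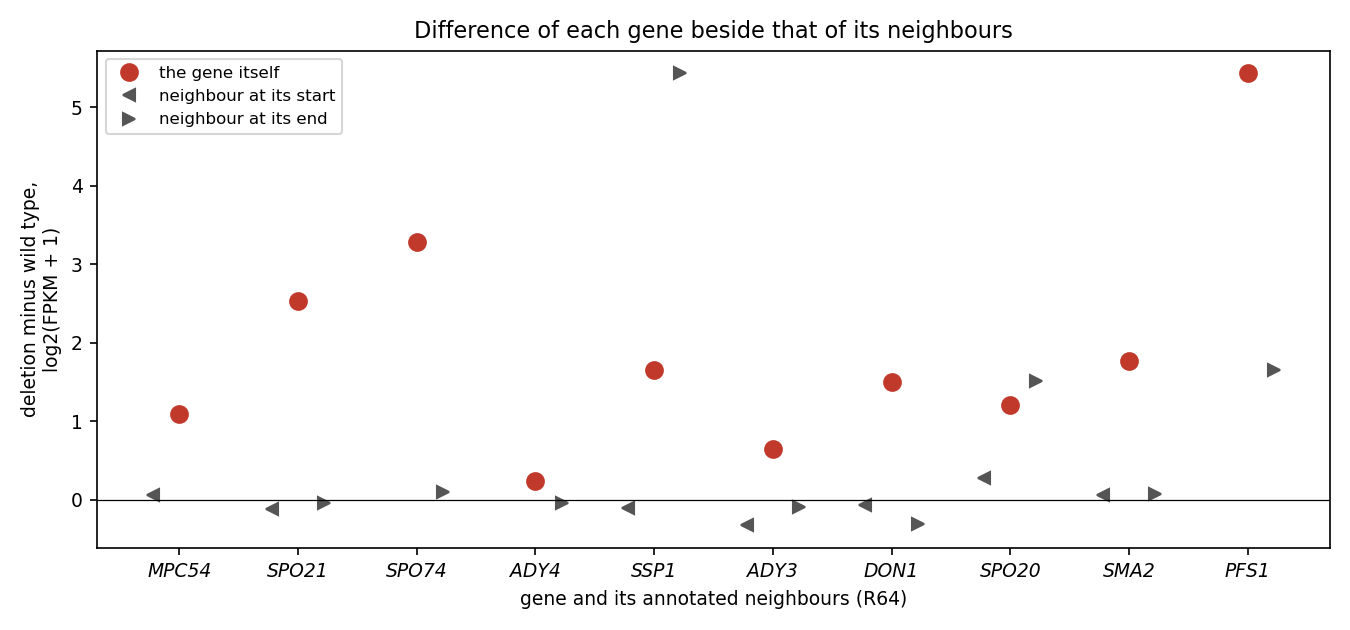
Difference of each gene (red) beside that of its annotated neighbours at its start (left triangle) and its end (right triangle), deletion minus wild type in log2(FPKM + 1). Neighbours that were not tested, all tRNA genes, are not drawn, and the high triangles at SSP1 and PFS1 are these genes themselves.

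The regulators of this gene group were compared in the same libraries. NDT80, which encodes the activator of middle sporulation genes, was listed at 27.1 and 29.6 FPKM in the deletion libraries and at 23.2 and 26.0 FPKM in wild-type libraries (limma adjusted p = 0.201). SUM1, encoding the repressor of these genes, was listed at 29.5 and 30.5 FPKM in the deletion libraries and at 22.5 and 24.3 FPKM in wild-type libraries, with an adjusted p of 0.0501 by limma that fell below 0.05 under 2 of the alternatives. RFM1, which joins Sum1 and Hst1, was listed at 22.7 and 23.0 FPKM in the deletion libraries and at 26.7 and 25.3 FPKM in wild-type libraries (limma adjusted p = 0.149). IME1, the inducer of meiosis, was listed at 14.5 and 17.3 FPKM in the deletion libraries and at 11.4 and 11.1 FPKM in wild-type libraries (limma adjusted p = 0.0669).

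Markers of cells that have entered meiosis were measured beside the 10 genes. Among 12 early meiotic markers 1 rose and 0 fell by limma, with a median log2 difference of 0.32 beside -0.01 for all genes tested. Of all genes tested 6.75% were called higher. At unadjusted p under 0.05, 5 of the 12 were higher and 0 lower. For 7 of the 12 both deletion libraries lay above both wild-type libraries. Of all 6370 genes tested 1025 were higher at that unadjusted p, and 30.5% had both deletion libraries above both wild-type libraries. The list summed to 82.7 and 76.2 FPKM in the deletion libraries and to 65.5 and 64.1 FPKM in wild-type libraries, and none of its genes was listed at 0 in all 4 libraries. DMC1, a recombinase gene, was the 1 called, with 10.4 ± 0.41 FPKM in the deletion strain and 5.74 ± 0.18 FPKM in wild type (SD, n = 2; limma adjusted p = 0.0134), and it was not called without deletion replicate 1 or 2. Of 3 late markers DIT1, of spore wall dityrosine synthesis, rose 2.83-fold (limma adjusted p = 0.00122), and DIT2 and SPS100 did not pass. At unadjusted p under 0.05, 2 of the 3 late markers were higher and 0 lower. For 3 of 3 both deletion libraries lay above both wild-type libraries. The late markers summed to 34.4 and 35.5 FPKM in the deletion libraries and to 16.9 and 17.4 FPKM in wild-type libraries. In bulk RNA a higher level in every cell and a larger share of expressing cells cannot be told apart, and the part of such cells in the rises was not tested.

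The genes whose values over the 4 libraries lay nearest to the median profile of the 10 genes, by Euclidean distance in log2(FPKM + 1), were THI4, PRM2, SPS18, YOR365C and YNL319W, at distances between 0.23 and 0.53. SPO21 lay nearest among the 10 genes themselves (0.37) and ADY4 farthest (3.82). THI4, of thiazole synthesis, averaged 22.4 ± 0.71 FPKM in the deletion strain and 3.84 ± 0.14 FPKM in wild type (SD, n = 2).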

How the data were processed

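The deposited values are FPKM per reading frame, 1 file per library, made by the authors with TopHat2 2.0.10 and Cuffnorm 2.2.1, per the submitters' processing notes. The build, annotation, scaling, strand use and handling of reads with several matches behind them are not given in the sources. Of 6690 names 6007 matched a locus tag of R64, which served for names, neighbours and sequence. No coordinates are printed, since the build of the files is unknown.

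The test was limma 3.58.1 (R 4.3.3), checked on simulated data. It took log2(FPKM + 1), a scale that understates the change of low genes, for the 6370 genes that reached 1 FPKM in 2 or more libraries. The model held genotype alone and a mean-variance trend, with 2.65 prior degrees of freedom, and p-values were adjusted by Benjamini-Hochberg. An exact permutation of 2 against 2 libraries cannot go below p = 0.333. Folds are ratios of mean FPKM, given where both means reach 2 FPKM. At most 40.6% of low values fell on whole-read steps (within 0.01 in log2), too few to recover reads, so no count test was run.

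The 10 genes and the other lists were chosen with earlier results of these data known. The genes named are the 10, the regulators, the paralogs, called neighbours, up to 5 called genes per list by size and the 5 nearest profiles. Named outside this rule, after values were seen, are TRP1, LYS2, BUR2, CUE5, IRC10, SPO14, SPO71, SPO73, VPS13, ERV14, SPC72, TUB4, SPC97, SPC110, DIT2 and SPS100. Among the sequence matches, 1 gene is not reported here. No protein sequences were used. Alternatives were other pseudocounts, filters and scalings, no trend, a replicate block and leaving out each library. The lone library is then assumed to vary like the other genotype.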

Additional observations from a re-analysis of the deposited data

How the results depend on the processing

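Under 12 alternatives the log2 difference of each of the 10 genes stayed above 0, and of 120 such values 109 kept their side of the threshold and 11 missed it, those of ADY3, SPO20 and MPC54 (MPC54 adjusted p = 0.0880 and 0.0812 without deletion replicates 1 and 2). Between 6 and 9 of the 10 genes were called higher, 7 after quantile normalization. Over all genes, leaving out 1 library gave between 184 and 377 higher and between 47 and 83 lower. Quantile normalization gave 355 higher and 294 lower, so 54.7% of the calls pointed up, against 70.7% without it. With the replicate block 360 genes were higher and 111 lower, and 8 of the 10 genes were called, ADY3 having adjusted p = 0.0516. At a minimum of 5 FPKM, PFS1, SPO74, SPO21, MPC54, DON1 and SPO20 passed the filter only through their deletion libraries. Their calls under that filter therefore add no separate support. Same-numbered libraries deviated with a correlation of -0.09 across genes, so the numbers were not taken to pair them. In the spindle pole body list 0 genes were called with a pseudocount of 0.1, without the filter, after quantile normalization, with the block and when any 1 library was left out. Likewise 0 exocytic fusion genes were called lower when any 1 library was left out. Regulators called higher numbered 1 with a pseudocount of 5 or a minimum of 5 FPKM, and those called lower 0 to 2 without 1 library, because SIR2 and HST1 then fail the filter. Early meiotic markers called higher numbered 2 without the filter or the trend and 0 to 1 without 1 library, and late markers 2 without the trend. Other causes were not tested. Absolute depth is unknown, which limits what can be said of PFS1 in wild type.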
